A study of Mus musculus with 11 samples.

Results

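Transcript levels of Sufu-mutant SMB21 clones were set against those of parental SMB21 cells kept for 24 h with sonidegib, which asks where clones with a lesion in Sufu stand apart from the drug-inhibited state of the line they came from. These are 4 of the 11 libraries of the series, namely Sufu-mutant clones R13 and R1 and sonidegib replicates 1 and 2, chosen by their labels. SMB21 is a mouse medulloblastoma line on a Ptch mutant background (strain background Ptch1tm1Mps/J) that is grown as neurospheres, so every group carries the Ptch mutation, the treated and untreated controls included. The clones came out of a transposon screen, and the title of the series calls it a screen for drug resistance. Each Sufu clone gave 1 library, and the labels state neither the lesion in Sufu nor whether the clones were grown with drug. Untreated parental cells (n = 3) and Ofd1-mutant clones (n = 4, clone R14 giving 2 libraries and clones R16 and R25 giving 1 each) added to the estimate of the spread, and their levels are given as references.

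Hedgehog signalling runs from the receptor Ptch1 to the membrane protein Smoothened, and from there to the Gli transcription factors. Ptch1 holds Smoothened back until a Hedgehog ligand binds, and a cell without working Ptch1 signals with no ligand. Sufu binds Gli proteins and holds them back below Smoothened, so a Smoothened inhibitor such as sonidegib acts at a step above Sufu. In the cerebellum the pathway drives the division of granule cell progenitors, the cells from which this class of medulloblastoma grows.

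Totals ran from 24308451 counts in clone R13 to 34419880 in sonidegib replicate 2 over the 4 libraries. Levels are CPM, counts scaled to each library's normalized size, and differences are on the log2 scale with their standard error (SE). Over 10941 genes the SD of log2 differences was 0.91 for the pair of sonidegib libraries, 0.65 for the Sufu clones and 0.23 for parental replicates 1 and 2, while parental replicate 3 lay at 0.55 and 0.56 from those replicates. Sonidegib replicate 2 held less signal from long transcripts than the other 10 libraries. Each gene's log2 level, less its mean over the 11 libraries, was correlated with transcript length (Spearman). The correlation was -0.489 in sonidegib replicate 2 against -0.017 to 0.204 in the others. Sonidegib replicate 1 lay nearer to parental replicates 1 and 2 (SD of 0.49 and 0.48) than to its own replicate. It was also nearer to R13 and R1 (0.78 and 0.86) than to that replicate. R13 lay nearer to the parental libraries (0.57 to 0.58) than to R1, and R1 lay nearer to parental replicate 3 (0.61) than to R13. The labels name no batch, so no value within a batch was computed, and results that change without a sonidegib library are given below with it and without it. The granule cell lineage markers Atoh1 at 962 and 719 CPM under sonidegib and 461 and 248 CPM in R13 and R1, with Barhl1 and Pax6, were present in all 4 libraries. The titles of the parental and sonidegib libraries, and those of the pair of libraries from Ofd1 clone R14, call them biological replicates. No source says that they were separate cultures, so the spread between such replicates may be technical. P-values measure the spread within groups, pooled over the 11 libraries. That spread also holds differences between clones in the Sufu and Ofd1 groups.

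A gene was called at a Benjamini-Hochberg adjusted p under 0.05 in the edgeR quasi-likelihood test over all 11 libraries. Of 14306 genes tested, 623 were higher (4.35%) and 494 lower (3.45%) in the Sufu clones than under sonidegib. In 352 of the 623 and 245 of the 494 the Sufu clones lay within 0.5 (log2) of untreated parental cells, called near parental below. A further 149 of the higher and 98 of the lower genes lay 1 or more past the parental level in the direction of the difference, called beyond parental below. These places describe levels and rest on no test against parental cells. In that comparison the edgeR fit called 0 of 14306 genes (0.00%, with 1208 at an unadjusted p under 0.05), DESeq2 called 167 and limma voom with quality weights called 122. The 247 genes beyond parental thus include none that passed against parental cells in the edgeR fit. Both Sufu libraries lay outside the range of the sonidegib libraries for all 1117 called genes. Over all genes tested, both Sufu libraries were above both sonidegib libraries for 24.6% and below for 24.4%.

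These counts rest on the assumption that sonidegib libraries vary no more than the others do, and the replicates went against it. The 4 libraries alone called 15 genes, and a fit that weighted libraries by their own spread called 4. Among the 15 were Hpca, Gli1, Eda2r, Dusp6, Sorcs2, Hhip, Epha8, N4bp3, Nptx1 and D630003M21Rik, higher in the Sufu clones, and Igfbp5, Diras2 and Gfap, lower. The weighted fit called Hpca and Sox18 higher and Trnp1 and Cfhr2 lower. Without sonidegib replicate 1 the count was 4456, and without replicate 2 it was 148, each with the lone sonidegib library assumed to vary as the other groups do. Without clone R13 it was 538, without R1 it was 242, without parental replicate 1 it was 680 and without parental replicate 2 it was 650. Calls that held both without sonidegib replicate 1 and without replicate 2 numbered 83 higher (0.580%) and 48 lower (0.336%), and these are called kept below.

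Sufu itself did not pass the test. Its level was 2.79 and 17.8 CPM in R13 and R1. The sonidegib replicates gave 24.8 and 5.54 CPM and the untreated parental replicates 29.5, 27.6 and 28.6 CPM. The low level of clone R13 was not shared by R1, and sonidegib replicate 2 lay below R1, so the groups overlapped. The difference was -0.56 ± 0.74 (adjusted p = 0.639), and it was 0.87 without sonidegib replicate 1 and 0.25 without R13. The low sonidegib library, replicate 2, is also the one short of long transcripts. The count table does not show which exons the reads came from, so it does not check a truncated transcript.

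Most genes of a stretch beside Sufu on chromosome 19 had lower levels in both clones than in the parental libraries, but none passed the test against parental cells. From Actr1a, next before Sufu, to Taf5, RefSeq lists 19 genes other than Sufu, of which 10 averaged 5 CPM or more over the 11 libraries, a stretch picked after its values were seen. The adjusted p of those 10 against parental cells ran from 0.202 for Nt5c2 to 0.911 for Ina. Their median log2 difference from parental cells was -0.76 in R13 and -0.87 in R1, against 0.15 and 0.06 in sonidegib replicates 1 and 2. All 10 in R1 and 9 in R13 lay below every parental library. Against sonidegib, Actr1a, Arl3 and Nt5c2 were called lower. Farther out on the other side of Sufu, Pprc1 (1.499 ± 0.40) and Nolc1 (0.99 ± 0.21) were called higher, and were named after their values were seen. Both of these calls were lost without sonidegib replicate 2, R13 or R1, and that of Pprc1 also without parental replicate 1 or 2. Actr1a, a dynactin subunit, was at 188 and 178 CPM under sonidegib and 90.7 and 92.3 CPM in the clones, with 182, 162 and 189 CPM in parental cells. Nt5c2, a nucleotidase, stood at 88.1 and 87.4 CPM under sonidegib and at 41.99 and 37.6 CPM in the clones. Both clones sat near the same level for these genes, while Sufu differed between them. Trim8, the gene next after Sufu, went the other way against sonidegib without being called, at 56.7 and 56.3 CPM there, 92.7 and 99.4 CPM in the clones and 146, 141 and 168 CPM in parental cells. Leaving out 1 library lost the call of Actr1a for sonidegib replicate 2, R13, R1 and each parental replicate, that of Arl3 for sonidegib replicate 2, R13 and R1, and that of Nt5c2 for R1. The same stretch had medians of -0.99, -0.998 and -0.91 in the Ofd1 libraries of clones R14 (both) and R16, and -0.17 in R25. The plot of Sufu and its neighbours gives each gene.

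**Figure D1:**
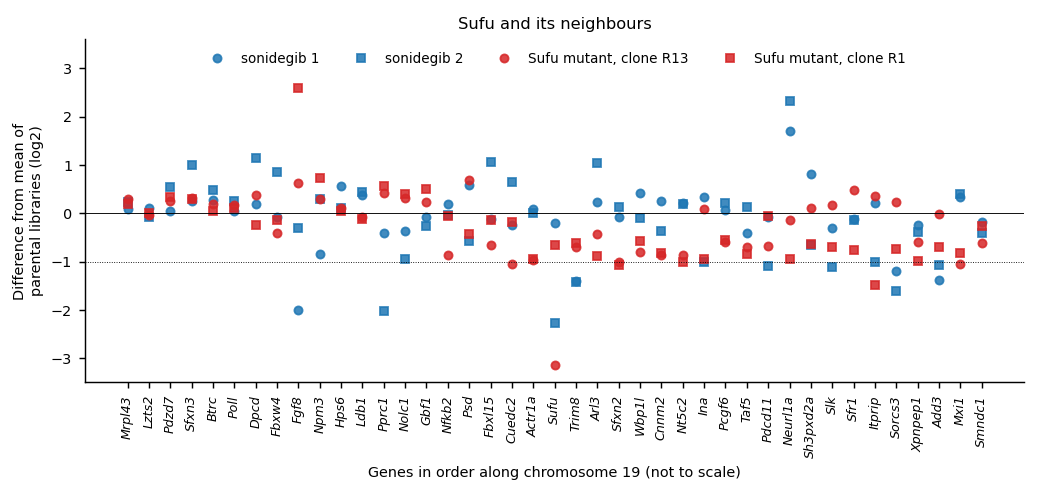
Log2 difference of each library from the mean of the 3 untreated parental libraries (CPM plus 0.5) for Sufu and the nearest 20 genes on each side of it that averaged 5 CPM or more, in gene order along chromosome 19 and not to scale. Blue marks are the sonidegib libraries and red marks the Sufu clones, and the dotted line is at -1. From Actr1a to Taf5 the red marks lie below the blue ones for most genes, with a median of -0.76 in R13 and -0.87 in R1, while Sufu is at its lowest in R13.

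Direct readouts of Gli activity were higher in the Sufu clones than under sonidegib. Of 15 Hedgehog targets tested, 7 were called higher and 1 lower (53.3% called, against 7.81% of all genes tested), and 4 of the rises were kept. Their median difference was 1.80, against -0.02 over all genes tested, and the median difference between Sufu clones and untreated parental cells was 0.27. Gli1, the transcription factor that is itself the standard readout of the pathway, stood at 7.68 and 8.73 CPM under sonidegib and at 231 and 239.8 CPM in R13 and R1. Both clones lay at the level of untreated cells (223, 219 and 242 CPM), and the rise over sonidegib was 4.84 ± 0.39 (adjusted p = 0.000508). Hhip, which binds and removes Hedgehog ligand, rose from 9.65 and 10.6 CPM to 162 and 248 CPM, a difference of 4.34 ± 0.61 (adjusted p = 0.00643).

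Other targets passed too. Prdm1, a transcriptional repressor, was at a low level throughout and rose from 0.434 and 0.206 CPM to 5.497 and 6.85 CPM. Cdk6, a kinase of the G1 phase, stood at 26.9 and 6.96 CPM under sonidegib and 59.1 and 75.6 CPM in the clones, a rise of 1.99 ± 0.46. Without sonidegib replicate 2 it was 1.31, and without replicate 1 it was 3.25. The cyclin gene Ccnd1, by contrast, held 253 and 253 CPM in the sonidegib replicates and rose to 888 and 707 CPM, a difference of 1.65 ± 0.38. Bcl2, which blocks apoptosis, rose by 1.15 ± 0.19, from 65.5 and 68.7 CPM to 164 and 134 CPM. Cdk6, Ccnd1 and Bcl2 were near parental in the clones. Atoh1, the granule cell progenitor factor, was the member called lower, at -1.25 ± 0.29, with both clones under both sonidegib libraries.

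Other targets did not pass. Ptch1, the receptor whose gene is mutated in the line and the best known target of Gli, stood at 98.4 and 111 CPM in the clones but under sonidegib at 37.5 and 1.18 CPM for replicates 1 and 2. The groups did not overlap, the sonidegib replicates lay far apart, and the difference of 2.44 ± 0.94 had an adjusted p of 0.119. It was called, at 6.44, without sonidegib replicate 1, and was 1.46 and not called (adjusted p = 0.0567) without replicate 2. Jag2, a Notch ligand, was at 2.35 ± 0.69 (adjusted p = 0.06099), Sfrp1 at 1.02, Igf2 at 1.07, Ccnd2 at 0.28 and Mycn at -0.66. Without R13 Igf2 was at -0.24, and without sonidegib replicate 2 or R1 Ccnd2 was at -0.14 and -0.16. Foxa2 was under 0.5 CPM in all 4 libraries. Without sonidegib replicate 2 the calls of Hhip, Prdm1, Ccnd1 and Atoh1 were lost (adjusted p = 0.0528 to 0.151), without parental replicate 2 that of Atoh1, without R13 those of Ccnd1 and Cdk6, and without R1 those of Ccnd1, Cdk6 and Atoh1.

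Genes that receive and pass on the signal had few calls. Of 35 tested, 2 were called higher and 2 lower, with a median of 0.02 (0.403 without sonidegib replicate 1 and -0.17 without replicate 2). The share called was 11.4%, against 7.81% of all genes tested. The coreceptors that present Hedgehog ligand to Ptch1 gave the rises. Boc stood at 267 and 242 CPM under sonidegib and 554 and 557 CPM in the clones, above the 326, 352 and 379.9 CPM of untreated cells, a difference of 1.12 ± 0.18 that was kept. Cdon rose from 0.801 and 0.501 CPM to 8.77 and 3.72 CPM (3.26 ± 0.70), and the coreceptor Gas1 at 1.22 ± 0.38 did not pass (adjusted p = 0.0708). Smo, which codes for Smoothened, the target of sonidegib, was lower in the clones at 188 and 175 CPM against 298 and 310.1 CPM, a difference of -0.75 ± 0.20 (adjusted p = 0.0481). Evc, which works with Smoothened at the base of the cilium, was lower by a similar amount (-0.79 ± 0.19). The calls of Cdon, Evc and Smo were lost without sonidegib replicate 2 (adjusted p = 0.112 to 0.152) and without R13, those of Evc and Smo without R1 or parental replicate 1, and that of Smo also without parental replicate 2 or 3. Gli2, the main activator among the Gli factors, was at 0.95, the kinesin Kif7 at -0.15 and the receptor Gpr161 at -0.22. Gpr161 held 22.1 and 1.68 CPM in the sonidegib replicates and 9.13 and 11.2 CPM in the clones, which lay between them. It was at 2.57 without replicate 1 and -1.13 without replicate 2.

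Part of the genes of the G1 to S transition were higher. Of 20 tested, 8 were called higher and 1 lower (45% called, against 7.81% of all genes tested), with a median of 0.64. Ccnd1 and Cdk6 are also counted among the Hedgehog targets. E2f7 and E2f8, repressors that E2F activity itself induces, rose by 2.02 ± 0.33 and 1.81 ± 0.33. E2f7 went from 8.71 and 4.45 CPM to 27.04 and 26.3 CPM. E2f1, an activator of the same family, was kept, with 37.1 and 35.9 CPM under sonidegib and 94.5 and 107 CPM in R13 and R1 (difference 1.46 ± 0.19). Mycl1, a Myc family member, was the fall, from 679 and 607 CPM to 274 and 264 CPM (-1.26 ± 0.16), also kept. E2f1 and Mycl1 were picked for naming after their values were seen. Without sonidegib replicate 2 the calls of E2f7, E2f8 and Ccnd1 were lost (adjusted p = 0.0512 to 0.151), and without R13 that of E2f8. Ccnd1 and Cdk6 lost theirs without R13 or R1. Of 16 cell cycle inhibitors, Cdkn1a was called higher, from 7.21 and 5.896 CPM to 14.1 and 31.7 CPM, and Btg1, an antiproliferative factor, lower (-1.02 ± 0.20). Both were lost without sonidegib replicate 2 or R1, Cdkn1a also without parental replicate 1 or 2 and Btg1 without R13. Of the inhibitors 12.5% were called, against 7.81% of all genes tested. Their median was -0.16, and it was 0.09 without sonidegib replicate 2.

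DNA replication genes were higher in the clones. Of 56 replication and nucleotide supply genes, 29 were called higher and 0 lower, 9 of them kept, and the median was 0.94. DESeq2 also called 0 lower, and 0 were lower at an unadjusted p under 0.05. Over all genes 4.35% were called higher. Both Sufu libraries lay above both sonidegib libraries for 47 of the 56, against 24.6% of all genes tested. Mcm10, which helps load the replication fork, rose from 29.5 and 16.8 CPM to 90.1 and 97.1 CPM (2.01 ± 0.27). Exo1, a nuclease of replication and mismatch repair, had replicates that lay close together, at 26.9 and 25.8 CPM under sonidegib, 105 and 94.7 CPM in the clones and 102, 98.9 and 103 CPM in untreated cells. Its difference was 1.92 ± 0.17 (adjusted p = 0.000508). Rrm2, the regulated subunit of ribonucleotide reductase, went from 25.2 and 31.4 CPM to 102 and 108 CPM (1.89 ± 0.27). Ticrr, which starts replication origins, rose by 1.73 ± 0.29, with its call lost without R1 (adjusted p = 0.0513). The median difference of the list between Sufu clones and untreated parental cells was -0.21. Summed over the list, levels were 3837 and 3684 CPM under sonidegib, 6977 and 6504 CPM in R13 and R1, and 6889 to 9314 CPM in parental cells. By this sum R13 lay inside the parental range and R1 under it, and the sum was not tested.

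The E2F family turns on S phase genes from sites in their promoters, and the promoters of 2 kept genes are shown for that reason. Promoters run from 250 bases before to 50 after the start of the gene in RefSeq (GRCm38.p6), and were found by symbol for 45 of the 56 genes. The E2F motif searched was TTTCCCGC or TTTGGCGC on either strand. It was in 15 of the 45 (33.3%), against 3.32% of the 10425 tested genes with a promoter and 1.80% of all 27025 in the table. Among list members called higher it was in 8 of 25 (32%), no larger a share than in the list as a whole. Among all genes called higher the share was 8.66%, and among those called lower 2.49%. A part of the motif in the rises was not tested. A match is a run of letters and not a tested binding site. Capitals mark the match, in the promoters of Cdc6 (chr11:98907901-98908200, plus strand), which loads the replicative helicase, and Mcm5 (chr8:75109259-75109558, plus strand), a subunit of that helicase:
Cdc6: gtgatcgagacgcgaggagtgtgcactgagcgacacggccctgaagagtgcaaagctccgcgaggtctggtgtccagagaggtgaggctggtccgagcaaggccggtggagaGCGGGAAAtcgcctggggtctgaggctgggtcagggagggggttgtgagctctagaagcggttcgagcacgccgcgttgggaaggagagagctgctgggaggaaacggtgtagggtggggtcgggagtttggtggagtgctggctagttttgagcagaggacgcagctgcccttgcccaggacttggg
Mcm5: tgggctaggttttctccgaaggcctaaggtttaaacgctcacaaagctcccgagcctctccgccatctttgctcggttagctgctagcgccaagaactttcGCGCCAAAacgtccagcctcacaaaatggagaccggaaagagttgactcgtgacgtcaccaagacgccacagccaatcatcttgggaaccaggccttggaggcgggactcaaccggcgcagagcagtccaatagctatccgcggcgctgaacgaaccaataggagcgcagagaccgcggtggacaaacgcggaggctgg
Cdc6 stood at 14.5 and 14.6 CPM under sonidegib and 46.3 and 39.9 CPM in the clones, a rise of 1.57 ± 0.18 that stopped short of the parental 68.3, 60.5 and 60.3 CPM. Mcm5 went from 71.03 and 74.4 CPM to 172 and 174 CPM (1.25 ± 0.18). Both were named after their values were seen. The Gli motif GACCACCCA, searched in the same way, was in 0 of the 10 Hedgehog targets with a promoter and in 0.289% of all promoters, and Gli1 had no entry in the table.

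DNA repair and checkpoint genes had calls in the same direction. Of 36 tested, 14 were called higher (38.9%, against 4.35% of all genes tested) and 0 lower. DESeq2 also called 0 lower, and 0 were lower at an unadjusted p under 0.05. The list had 3 kept rises and a median of 1.01. Chek1, the checkpoint kinase that answers stalled replication, was kept, at 18.7 and 21.9 CPM under sonidegib and 48.3 and 68.6 CPM in the clones (1.53 ± 0.24). Brca2, which repairs broken DNA by recombination, rose by 2.07 ± 0.49, the helicase gene Brip1 by 1.68 ± 0.30 and Fancd2, of the Fanconi pathway, by 1.66 ± 0.38 (2.53 without sonidegib replicate 1 and 1.095 without replicate 2). For Brca2 the sonidegib replicates stood at 25.2 and 8.55 CPM and the clones at 94.8 and 47.3 CPM, a wide spread in each group. These last 3 calls were lost without sonidegib replicate 2 (adjusted p = 0.0787 to 0.154), that of Brca2 also without R13 or without parental replicate 1 or 2, and that of Fancd2 without R1.

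Mitosis genes gave the highest share of calls of the 29 lists. Of 76 tested, 49 were called higher (64.5%, against 4.35% of all genes tested) and 0 lower. DESeq2 called 1 lower, and 1 was lower at an unadjusted p under 0.05. The list median was 1.06, and 5 rises were kept. Both Sufu libraries exceeded both sonidegib libraries for 66 genes and were below them for 3, against 24.6% and 24.4% of all genes tested. Mki67, the marker of dividing cells, stood at 259 and 109.9 CPM under sonidegib, 610.5 and 629 CPM in R13 and R1 and 668, 796 and 701 CPM in untreated cells. Top2a, which untangles chromosomes, went from 281 and 145 CPM to 667 and 725 CPM. The sonidegib replicates of both genes differed from each other by more than the clones did, and the rises were 1.75 ± 0.32 and 1.71 ± 0.29. Ncapg2, a condensin subunit, rose by 2.100 ± 0.25, and Anln, a scaffold of the cleavage furrow, by 2.18 ± 0.36. The calls of Mki67 and Top2a were lost without R1 (adjusted p = 0.0501 and 0.0564), and that of Anln without sonidegib replicate 2 (0.0751). The median of the list against untreated parental cells was -0.08. In bulk RNA, fewer dividing cells and less RNA per dividing cell cannot be told apart.

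Promoters of mitosis genes often hold the cell cycle genes homology region, TTTGAA, at which the genes are held down outside G2 and M phase. Of 64 mitosis genes with a promoter, 43 held it on either strand (67.2%), against 13.7% of tested genes and 20.2% of all. Among genes called higher as a whole the share was 25.1%, and among those called lower it was 12.5%. A run of 6 letters is common, so a single match says little about a site. The promoters of Cdk1 (chr10:69352863-69353162, minus strand), the kinase that drives entry into mitosis, and Top2a (chr11:99024140-99024439, minus strand) are shown with each match in capitals:
Cdk1: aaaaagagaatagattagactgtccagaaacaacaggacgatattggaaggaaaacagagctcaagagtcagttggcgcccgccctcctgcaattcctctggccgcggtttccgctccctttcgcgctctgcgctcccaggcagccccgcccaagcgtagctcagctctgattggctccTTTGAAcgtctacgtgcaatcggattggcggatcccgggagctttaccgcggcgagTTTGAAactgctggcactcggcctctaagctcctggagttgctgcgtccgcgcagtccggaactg
Top2a: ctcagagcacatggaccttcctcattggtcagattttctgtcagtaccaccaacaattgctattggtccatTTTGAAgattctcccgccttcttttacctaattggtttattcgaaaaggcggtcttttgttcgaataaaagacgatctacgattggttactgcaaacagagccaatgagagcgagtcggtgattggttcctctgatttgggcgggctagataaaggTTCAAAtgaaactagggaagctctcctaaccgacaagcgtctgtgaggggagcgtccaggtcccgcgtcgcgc
Cdk1, named after its values were seen, stood at 102 and 149.6 CPM under sonidegib and 225 and 231 CPM in the clones. Its rise of 0.86 ± 0.21 was kept, but its call was lost without R13, R1, or parental replicate 1 or 2.

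**Figure D2:**
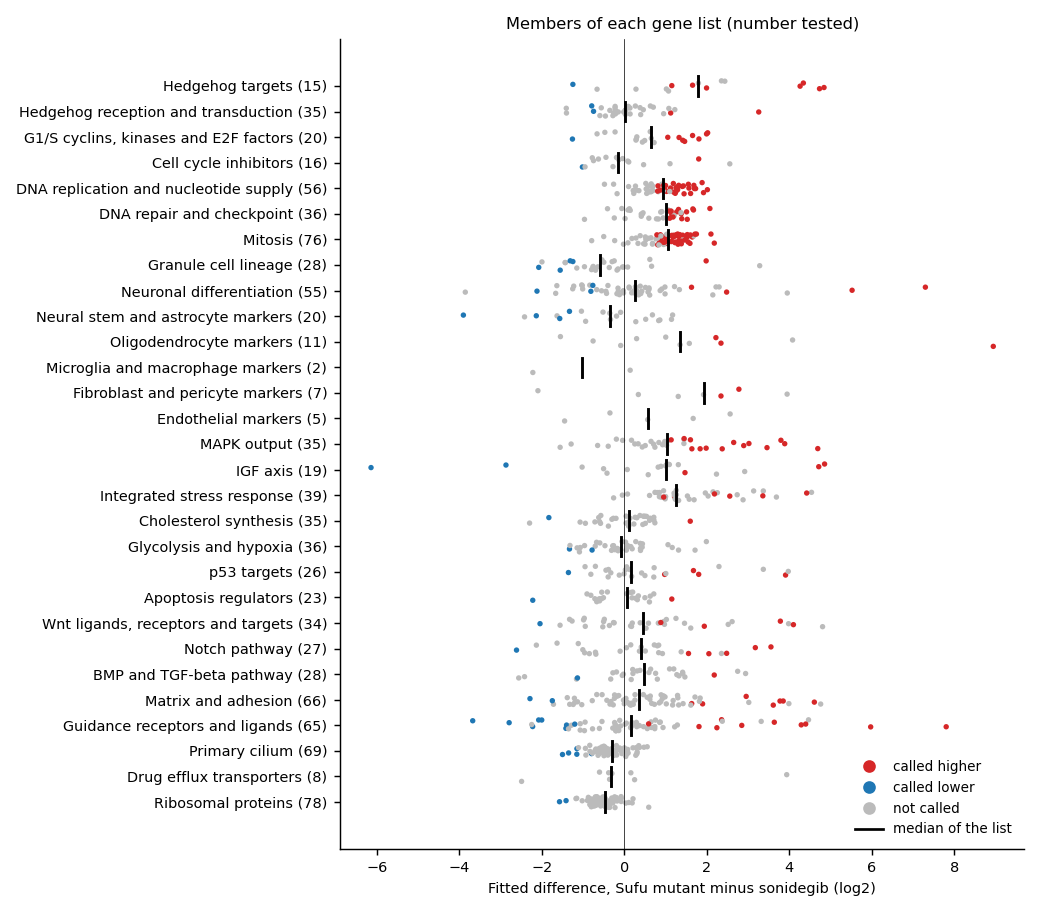
Fitted log2 difference, Sufu mutant minus sonidegib, of each tested member of 29 gene lists; red points were called higher, blue points lower and grey points neither, and black bars are list medians. The differences of Olig1 (8.94, oligodendrocyte markers) and Gad1 (7.30, neuronal differentiation) are set against 0 counts under sonidegib and depend on the fit. Mitosis, repair and replication lie to the right of 0 with medians of 1.06, 1.01 and 0.94, and ribosomal proteins to the left at -0.48.

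Part of the outputs of the MAPK pathway, through which growth factor receptors act, were also higher. Of 35 genes, 14 were called higher (40%, against 4.35% of all genes tested) and 0 lower. DESeq2 called 1 lower, and 1 was lower at an unadjusted p under 0.05. The list had 6 kept rises and a median of 1.02 (0.68 without sonidegib replicate 2). Most of these outputs are feedback inhibitors or early response factors. Spry4, which restrains receptor signalling, rose from 5.41 and 2.8004 CPM to 47.1 and 66.8 CPM (3.796 ± 0.41), beyond the parental 13.6, 17.6 and 19.5 CPM. Dusp6, the phosphatase that switches off ERK, rose from 12.5 and 9.49 CPM to 113 and 129 CPM (3.46 ± 0.38), with untreated cells at 44.2, 43.2 and 65.5 CPM. The transcription factors Etv4 and Egr3 rose by 3.89 ± 0.86 and 4.69 ± 1.04, Egr3 from a level of 0.1001 and 0.0884 CPM. For Etv4 the untreated libraries themselves spread, at 4.04, 3.52 and 24.6 CPM, and R13 and R1 at 23.4 and 33.1 CPM lay on either side of the highest of them. Egr1, the early response factor, was kept at 1.84 ± 0.43 and was named after its values were seen. The calls of Etv4 and Egr3 were lost without sonidegib replicate 2 (adjusted p = 0.147 and 0.160) and without R1, and that of Egr1 without R13 or R1. The median of the list against untreated parental cells was 0.32.

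Of the 15 rises with the largest fold that met the rule for naming, 11 were beyond parental in the clones, against 14 of all 83 kept rises (16.9%) and 149 of all 623 (23.9%). The 15 were chosen by fold, and none of the 11 passed against parental cells. Hpca, which codes for the neuronal calcium sensor hippocalcin, stood at 26.1 and 23.6 CPM under sonidegib, at 70.9, 80.1 and 212 CPM in untreated cells and at 923 and 805 CPM in R13 and R1, and none of the groups overlapped, although the difference from parental cells was 2.84 with an adjusted p of 0.0887. Its rise of 5.12 ± 0.53 (adjusted p = 0.00146) was the one call that held in all 17 alternatives. Eda2r, a receptor of the tumour necrosis factor family, went from 11.1 and 6.603 CPM to 126 and 140.0 CPM (3.91 ± 0.34), with 34.3, 43.9 and 54.8 CPM in untreated cells. It also counts among the p53 targets, of which 4 were called higher and 1 lower out of 26, with a median of 0.15 (0.33 without sonidegib replicate 1).

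Other leading rises were Enc1, an actin-binding Kelch protein gene, at 4.01 ± 0.38, Tmem54 at 3.89 ± 0.72 and Itga9, an integrin subunit, at 3.77 ± 0.60. Itga9 stood at 6.94 and 1.71 CPM under sonidegib and was 5.08 without replicate 1 and 3.08 without replicate 2. Akna, an AT-hook protein gene, was at 36.2 and 5.78 CPM in the sonidegib replicates and 246 and 227 CPM in the clones. Its difference of 3.497 ± 0.65 was 5.33 without replicate 1 and 2.69 without replicate 2. Sox13, a transcription factor, rose by 3.74 ± 0.44 and reached 26.1 and 52.7 CPM. Those that did not go beyond parental included Sorcs2, a sortilin-family receptor (3.64 ± 0.39), Adamts14, a matrix protease (3.504 ± 0.42), and Col27a1, a fibrillar collagen (2.95 ± 0.49). Adamts14 stood at 54.5 and 51.6 CPM in the clones, inside the parental range of 30.02, 36.2 and 73.9 CPM. The panel of leading rises shows these in each library.

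**Figure D3:**
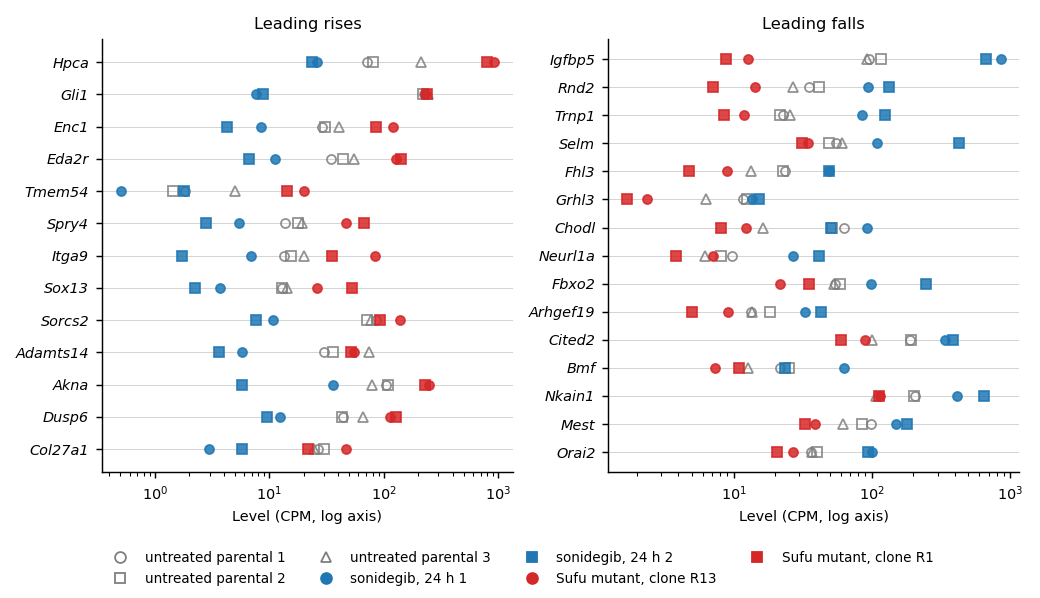
Level in CPM on a log axis in each untreated parental (grey, open), sonidegib (blue) and Sufu-mutant (red) library for 13 of the 15 leading rises and for the 15 leading falls, ordered by size; 1 mark is 1 library. Red and blue marks do not overlap for any of these genes, which the rule for naming required. For Hpca the grey marks, at 70.9 to 212 CPM, lie between the other groups.

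Among the falls that met the rule for naming, that of Igfbp5, a binding protein of insulin-like growth factors, was the largest. It stood at 852 and 671 CPM under sonidegib, 96.01, 117 and 91.8 CPM in untreated cells and 12.7 and 8.88 CPM in R13 and R1. The difference from sonidegib was -6.14 ± 0.93 (adjusted p = 0.00767), and that from untreated cells, -3.23, did not pass (adjusted p = 0.274). Rnd2, a small GTPase of neuron migration, fell by 3.404 ± 0.49, from 93.7 and 133 CPM to 14.3 and 7.101 CPM. Trnp1, a nuclear protein of neural progenitors, stood at 85.6 and 124 CPM under sonidegib and 11.96 and 8.54 CPM in the clones, with parental replicates at 22.99, 21.8 and 25.6 CPM (-3.36 ± 0.30, adjusted p = 0.000517). Those 3 genes were all beyond parental in the clones, and none passed against parental cells. Grhl3, a grainyhead factor, was at 13.6 and 15.4 CPM under sonidegib, close to 11.8, 12.5 and 6.36 CPM in untreated cells, and at 2.38 and 1.69 CPM in the clones.

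Selm, a selenoprotein gene with a short transcript, stood at 109 and 427 CPM in sonidegib replicates 1 and 2, and its fall of -3.03 was -3.73 without replicate 1 and -1.74 without replicate 2. Fbxo2, a ubiquitin ligase subunit for glycoproteins, behaved alike at -3.13 and -1.81. Bmf, a trigger of apoptosis, spread the other way, from 62.4 and 23.4 CPM under sonidegib to 7.396 and 11.03 CPM in the clones (-2.22 ± 0.47, and -1.37 without replicate 1). Cited2, a transcriptional cofactor, fell from 339.8 and 388 CPM to 89.4 and 60.1 CPM, and the imprinted gene Mest from 149.9 and 178 CPM to 39.001 and 32.97 CPM. Neurl1a, which lies 11 genes after Sufu in the plot of neighbours, Fhl3, Chodl, Arhgef19, Nkain1 and Orai2 fell by between 2.03 and 2.84 on the log2 scale. Without R1 the calls of Igfbp5, Selm, Grhl3, Chodl, Bmf and Orai2 were lost (adjusted p = 0.0525 to 0.102), and without R13 those of Chodl and Bmf (0.0502 and 0.103). Of the 48 kept falls, 9 were near parental and 21 beyond parental, while 47 of the 83 kept rises were near parental.

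Some granule cell lineage markers were lower. Of 28 tested, 4 were called lower and 1 higher (17.9% called, against 7.81% of all genes tested). Their median was -0.59 (-0.26 without sonidegib replicate 1). The summed level of the list was 5816 and 5328 CPM under sonidegib against 3054 and 2942 CPM in the clones. Barhl1, a homeobox factor of granule cell progenitors, fell from 917 and 1209.9 CPM to 269 and 236 CPM (-2.07 ± 0.34). Nhlh1, a helix-loop-helix factor of early differentiation, fell by 1.55 ± 0.31, and Pax6, a homeobox factor, fell by 1.31 ± 0.24. Etv1, which is induced as granule cells mature and also counts as a MAPK output, rose by 1.98 ± 0.36. The calls of all 4 were lost without sonidegib replicate 2 (adjusted p = 0.0611 to 0.099986), those of Nhlh1 and Pax6 without R13 and those of Barhl1 and Etv1 without R1. Of 55 neuronal differentiation genes, 4 were called higher and 3 lower, with a median of 0.25 (-0.02 without sonidegib replicate 2). The share called was 12.7%, against 7.81% of all genes tested. Clone R13 had a median of 0.66 for this list and R1 of -0.47. Syn2, a synaptic vesicle protein gene, fell by 2.12 ± 0.44. Rbfox1, a splicing factor of neurons, rose from 0.567 and 0.914 CPM to 5.78 and 2.54 CPM. Gad1, which makes the transmitter GABA, had 0 counts in both sonidegib libraries and 0.849 and 0.3804 CPM in the clones, at least 13.1-fold above 3 counts over the pair. The calls of Gad1, Rbfox1 and Syn2 were lost without sonidegib replicate 2 and without R13, those of Gad1 and Syn2 without R1, and that of Rbfox1 without sonidegib replicate 1 or parental replicate 1 or 2.

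Neural stem and astrocyte markers lay on both sides. Of 20 neural stem and astrocyte markers, 4 were called lower (20%, against 3.45% of all genes tested) and 0 higher. DESeq2 called 1 higher, and 3 were higher at an unadjusted p under 0.05. The list median was -0.34, which was 0.08 without sonidegib replicate 1 and -0.74 without replicate 2. Both clones lay above both sonidegib libraries for 4 of the 20 and below for 6, against 24.6% and 24.4% of all genes tested. Among the former were Nes, a filament gene of neural progenitors, at 106 and 133 CPM under sonidegib and 317 and 212 CPM in the clones, Hes1, a Notch target, at 36.5 and 44.1 and 76.1 and 67.5 CPM, Sox9, a progenitor factor, at 81.5 and 119 and 123 and 164 CPM, and the matrix gene Tnc at 6.27 and 3.596 and 6.71 and 15.5 CPM, none of which passed (adjusted p = 0.0816 to 0.252). Gfap, the astrocyte filament, stood at 101 and 105 CPM under sonidegib, 13.97, 15.9 and 35.4 CPM in untreated cells and 8.93 and 4.82 CPM in the clones (-3.900 ± 0.83). Slc1a3, a glutamate transporter, fell by 1.56 ± 0.26, the filament gene Vim fell by 2.13 ± 0.53 and Aldoc, a glycolytic enzyme, fell by 1.33 ± 0.34. Vim ranged from 87.7 to 297 CPM among untreated libraries, so its place against them was unsettled. All 4 were lost without R13, and Gfap, Vim and Aldoc without sonidegib replicate 2 (adjusted p = 0.0858 to 0.227) or R1. Vim and Aldoc were also lost without parental replicate 2, and Aldoc without parental replicate 1. The astrocyte markers Aqp4 and Aldh1l1 were at 0 or under 0.1 CPM in these libraries. The summed level of the list was 2578 and 1872 CPM under sonidegib, 1613 and 1450 CPM in R13 and R1, and 1730 to 2971 CPM in parental cells.

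Of 11 oligodendrocyte markers, 3 were called higher (27.3%, against 4.35% of all genes tested). Olig1 had 0 counts under sonidegib and 0.323 and 3.55 CPM in the clones, at least 41.2-fold above 3 counts over the pair, with R1 well above R13. Pdgfra, the receptor of oligodendrocyte precursors and of fibroblasts, rose from 50.3 and 78.8 CPM to 187 and 468 CPM, and Ugt8a, an enzyme of myelin lipids, by 2.22 ± 0.57. The myelin genes Mag, Mobp and Mbp were at 0 or under 0.3 CPM. The list summed to 99.9 and 144 CPM under sonidegib and 261 and 518 CPM in the clones. Without Pdgfra it summed to 49.6 and 64.8 CPM against 74.04 and 50.1 CPM, which overlap. Of 7 fibroblast and pericyte markers, Fbln1 and Pdgfra were called higher (28.6%), while Dcn, Col1a2 and Pdgfrb were under 0.1 CPM. That list summed to 83.3 and 89.3 CPM under sonidegib and 271 and 503 CPM in the clones, most of it Pdgfra, and without Pdgfra to 33.01 and 10.6 CPM against 83.6 and 35.5 CPM. Without sonidegib replicate 2 or R1 the calls of Olig1, Pdgfra, Ugt8a and Fbln1 were lost, without R13 those of Ugt8a and Fbln1, without parental replicate 1 those of Ugt8a and Fbln1, without parental replicate 2 that of Ugt8a, and without sonidegib replicate 1 that of Pdgfra. Of 5 endothelial and 2 microglial markers tested, 0 were called by edgeR or DESeq2, with 2 and 1 at an unadjusted p under 0.05. Their summed levels were at most 5.71 CPM and 3.54 CPM in these 4 libraries, with Cldn5, Aif1 and P2ry12 at 0 in all of them. The part of such cells in the results was not tested.

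Insulin-like growth factor genes moved both ways. Of 19 tested, 3 were called higher and 2 lower (26.3% called, against 7.81% of all genes tested). Their median was 1.00, and it was 0.597 without sonidegib replicate 2. The median was 1.06 in R13 and 0.46 in R1. Beside Igfbp5, the binding protein gene Igfbp3 fell by 2.87 ± 0.63. Pappa, a protease that cleaves such binding proteins, rose by 4.71 ± 1.04, from 0.334 and 0.206 CPM to 9.498 and 4.78 CPM, and Igf2bp2 rose from under 0.1 CPM to 0.525 and 0.592 CPM. These last 3 calls were lost without sonidegib replicate 2 or R1, and those of Pappa and Igfbp3 also without R13. Integrated stress response genes had a median of 1.26, with 6 of 39 called higher (15.4%, against 4.35% of all genes tested) and 0 lower. DESeq2 called 24 higher and 0 lower, and 26 and 0 were at an unadjusted p under 0.05. The amino acid transporters Slc7a1 and Slc7a5 rose by 3.36 ± 0.58 and 2.56 ± 0.47, Slc7a5 from 143 and 164 CPM to 756 and 1052 CPM. The lipoprotein receptor gene Vldlr rose by 2.19 ± 0.34, and Stc2, a secreted stress protein gene, by 4.42 ± 1.20. For this list R1 had a median of 1.81 and R13 of 0.76, and Stc2 stood at 3.52 and 24.5 CPM in R13 and R1. All 4 calls were lost without sonidegib replicate 2 (adjusted p = 0.0611 to 0.251), those of Stc2 and Slc7a5 without R1, and that of Stc2 also without sonidegib replicate 1 or parental replicate 1 or 2.

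Notch and Wnt genes gave mixed calls. Of 27 Notch pathway genes, 5 were called higher and 1 lower (22.2% called, against 7.81% of all genes tested). The glycosyltransferase gene Lfng, which modifies the Notch receptor, was kept, at 4.24 and 6.43 CPM under sonidegib and 35.8 and 23.8 CPM in the clones (2.48 ± 0.34). The ligands Dll4 and Dner rose by 3.55 ± 0.66 and 3.18 ± 0.54, and the target Hey1 fell from 229.8 and 233 CPM to 30.9 and 44.7 CPM (-2.61 ± 0.56). Without sonidegib replicate 2 the calls of Dll4, Dner and Hey1 were lost, without R1 those of Dll4 and Hey1, and without R13 that of Hey1. Of 34 Wnt genes, 4 were called higher and 1 lower (14.7% called, against 7.81% of all genes tested). The ligand Wnt7b rose by 4.099 ± 1.06 and the receptor Fzd1 by 1.94 ± 0.31. Of the transcription factors, Tcf7 rose from 0.367 and 0.0295 CPM to 2.79 and 2.66 CPM (3.78 ± 0.81, and 6.33 without sonidegib replicate 1) while Tcf7l2 fell from 16.96 and 25.3 CPM to 3.96 and 6.298 CPM. All 4 were lost without sonidegib replicate 2, those of Wnt7b, Tcf7 and Tcf7l2 without R13, those of Wnt7b and Tcf7 without R1, and that of Wnt7b without sonidegib replicate 1 or parental replicate 1 or 2. Of 28 BMP and TGF-beta genes, 1 was called each way, a share near that of all genes tested (4.35% higher and 3.45% lower), namely Smad3 (2.18 ± 0.33) and Id2 (-1.14 ± 0.28). Both were lost without sonidegib replicate 2 (adjusted p = 0.0517 and 0.180), and Id2 without R13, R1 or parental replicate 1.

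Guidance genes had calls in both directions. Of 65 receptors and ligands, 10 were called higher and 8 lower (27.7% called, against 7.81% of all genes tested). Epha8, an ephrin receptor, stood at 2.04 and 2.56 CPM under sonidegib, 10.3, 8.92 and 60.1 CPM in untreated cells and 148 and 142 CPM in the clones (5.97 ± 1.02). Sorl1 and the ligand Slit3 rose by 4.397 ± 0.81 and 4.29 ± 0.74, and Sema3e rose from at most 0.0295 CPM to 4.41 and 4.27 CPM. Sema3e was at 0 in all 4 Ofd1 libraries. All 4 calls were lost without sonidegib replicate 2 (adjusted p = 0.0755 to 0.180), and that of Sema3e also without sonidegib replicate 1, R13 or R1. Of 66 matrix and adhesion genes, 7 were called higher and 2 lower (13.6% called, against 7.81% of all genes tested). Lama5, a laminin chain, rose from 87.01 and 39.8 CPM to 419 and 1130.1 CPM, Fbn2, a fibrillin, by 4.61 ± 0.71, and Mmp15 by 3.85 ± 0.63. These 3 calls were lost without sonidegib replicate 2 (adjusted p = 0.0656 to 0.0767).

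The primary cilium is where Smoothened works in vertebrates, and a few of its genes were lower. Of 69 tested, 5 were called lower and 0 higher (10 lower and 0 higher by DESeq2, 18 and 0 at an unadjusted p under 0.05), with a median of -0.29. The share called was 7.25%, near the 7.81% of all genes tested, which was split into 4.35% higher and 3.45% lower. Both Sufu libraries lay below both sonidegib libraries for 30 of the 69, against 24.4% of all genes tested. B9d1 (-1.498 ± 0.38), Arl3 (-1.35 ± 0.30), Kifap3 (-1.15 ± 0.30) and Ift27 (-1.15 ± 0.27), which work in building or gating the cilium, were the 4 examples taken. Among them, Arl3 also lies in the stretch beside Sufu described above. All 4 were lost without sonidegib replicate 2 (adjusted p = 0.157 to 0.237), where B9d1 was at -0.89 and Ift27 at -0.71, and without R1. Without R13 those of B9d1, Arl3 and Ift27 were lost, without parental replicate 1 those of B9d1 and Kifap3, without parental replicate 2 those of B9d1, Kifap3 and Ift27, and without parental replicate 3 that of Kifap3. Ribosomal protein genes had a median of -0.48, which was -0.91 without sonidegib replicate 1 and 0.07 without replicate 2. They summed to 65175 CPM in sonidegib replicate 2 and to 33150 CPM, 34332 CPM and 38914 CPM in sonidegib replicate 1, R13 and R1. Their transcripts are short, with a median of 1076.5 nucleotides, and replicate 2 held less of the long ones. Rpl41 (-1.57) and Rpl37 (-1.41) were the 2 called lower of 78 (2.56%, against 3.45% of all genes tested). Without sonidegib replicate 2 they were at -0.502 and -0.65, and both calls were lost without sonidegib replicate 2, R13, R1, or parental replicate 1 or 2, with Rpl37 lost also without parental replicate 3. The part of transcript length in these differences was not tested.

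The remaining lists held few calls. Against 7.81% of all genes tested, the share called was 5.71% for cholesterol synthesis and 5.56% for glycolysis and hypoxia. It was 8.70% for apoptosis regulators and 19.2% for p53 targets. Of 35 cholesterol synthesis genes, 1 was called higher and 1, the reductase Tm7sf2, lower (-1.83 ± 0.47, and -0.76 without sonidegib replicate 2), with a median of 0.11 (0.29 without sonidegib replicate 1 and 0.02 without replicate 2). Of 36 glycolysis and hypoxia genes, Pfkm and Aldoc were called lower. The calls of Pfkm, Aldoc and Tm7sf2 were lost without sonidegib replicate 2, and also with any of R13, R1, parental replicate 1 or parental replicate 2 left out. Among apoptosis regulators the calls were Bcl2 and Bmf, 2 of 23. Of the p53 targets, Plk3 rose by 1.68 ± 0.34 and Trp53inp1 fell by 1.35 ± 0.33, and both were lost without sonidegib replicate 2 or R1, with Trp53inp1 also lost without R13 or parental replicate 2. Of 8 drug efflux transporters, 0 were called by edgeR and 2 by DESeq2, with 3 at an unadjusted p under 0.05.

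A few genes were close to absent in both clones while present under sonidegib and in parental cells, and these were picked out after their values were seen. Cfhr2, a gene of the complement system, had 0 counts in both clones against 4.01 and 4.07 CPM under sonidegib, at least 65.1-fold lower against 3 counts over the pair, and so did Gm4788, against 1.54 and 1.002 CPM. As3mt, an arsenic methyltransferase gene that RefSeq places next to Cnnm2 in the stretch beside Sufu, had 0 counts against 2.54 and 3.36 CPM, at least 47.6-fold lower. The call of As3mt was lost without sonidegib replicate 2, R13 or R1, and that of Gm4788 without sonidegib replicate 2 or R1. In the Ofd1 libraries Cfhr2 was at 0, 0, 0 and 0 CPM and As3mt at 0.06195, 0, 0 and 0.288 CPM. Cfhr2 belongs to a family of related sequences, and reads that fit several members could be split by the counting.

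Medians per chromosome differed by clone. Over 10241 genes that averaged 5 CPM or more and had a chromosome in RefSeq, the median difference from sonidegib was -0.03 in R13 and -0.01 in R1. Chromosome 12 stood at 0.37 in R1 and 0.01 in R13, and chromosome 9 at 0.26 in R1 and 0.02 in R13. Chromosome 14 was at -0.27 in R13 and 0.00 in R1, and chromosome 1 at -0.10 in R13 and -0.24 in R1. Against untreated parental cells the same clones showed 0.32 (chromosome 12, R1), 0.25 (chromosome 9, R1) and -0.28 (chromosome 14, R13). Chromosome 1 was at -0.09 in R13 and -0.24 in R1 against parental cells. Chromosome 6 in R13 was at -0.28 against sonidegib and -0.20 against parental cells, and chromosome 15 in R13 at -0.20 and -0.23. Some other medians moved with the reference, with chromosome 18 in R13 at 0.24 and 0.04 and chromosome 17 in R13 at -0.20 and -0.05. Genes of chromosome 9 were called higher in 7.48% and lower in 2.38%, against 4.84% and 3.94% of all 10241. Chromosomes 5 (7.61%) and 19 (7.29%) had similar shares called higher, with medians in R1 of 0.06 and -0.02 against sonidegib. The DNA copy number was not measured.

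The Sufu clones were set beside each other for the called genes. Log2 differences here use a prior count of 0.5. Of the 1117 called genes, 759 (67.9%) differed by less than 0.5 between clones and 121 (10.8%) by 1 or more, 78 of them higher in R13 and 43 higher in R1. The clones are the replicates of the tested group, so calling favours genes in which they lie close together. These shares therefore do not measure how well the clones agree. The share over all genes tested was not computed, and over 10941 genes the SD of log2 differences between the clones was 0.65. Genes with wide gaps are given here, taken after the values were seen. Ptgir, the prostacyclin receptor gene, stood at 0.687 and 25.2 CPM in R13 and R1, against 0.0334 and 0.05896 CPM under sonidegib. Fhl1, an LIM protein gene, stood at 25.1 and 2.24 CPM against 1.03 and 0.5896 CPM. Peg13, an imprinted RNA, stood at 3.07 and 13.99 CPM in R13 and R1 and 99.6 and 38.97 CPM under sonidegib. Without either sonidegib library or parental replicate 1 or 2 the calls of Ptgir and Fhl1 were lost, as were those of Ptgir without R1, Fhl1 without R13 and Peg13 without sonidegib replicate 2 or R13. Both clones lay on the same side of the sonidegib libraries for all 1117, so genes in which the clones moved opposite ways are not among them.

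**Figure D4:**
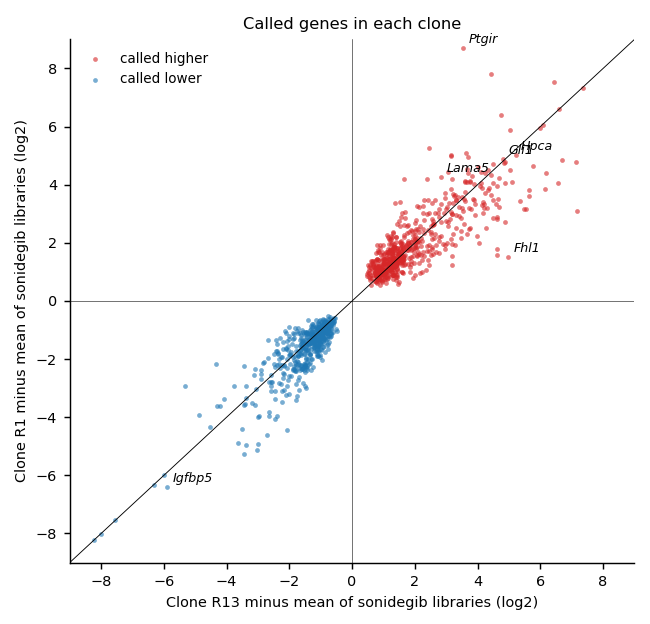
Log2 difference from the mean of the sonidegib libraries in clone R13 (x axis) and clone R1 (y axis) for the 1117 called genes, with a prior count of 0.5; red points were called higher and blue points lower, and the line marks equal differences. Most points lie near the line, which the calling favours, with 759 of them within 0.5, while Ptgir lies far above it and Fhl1 far below.

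Ofd1-mutant clones were compared with the same sonidegib libraries, so both comparisons share them. Gli1 was at 4.84 in the Sufu clones and 4.001 in the Ofd1 clones against sonidegib, and Hhip at 4.34 and 4.12. The list medians were 1.80 and 1.74 for Hedgehog targets, 0.94 and 1.23 for replication, 1.06 and 1.33 for mitosis and 1.02 and 0.95 for MAPK output. Igfbp5 stood at 133, 39.9, 39.7 and 276 CPM in the Ofd1 libraries against 12.7 and 8.88 CPM in R13 and R1. The direct test of Ofd1 against Sufu clones called 1 of 14306 genes (0.00699%) by edgeR and 88 by DESeq2, and none of the 147 genes named by rule was called by edgeR.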

How the data were processed

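RNA from 11 libraries of SMB21 cells was sequenced as single-end reads of 75 bp from stranded mRNA libraries, per the labels' protocols. The authors deposited whole-number counts per gene in 1 table, and the submitters' processing notes name STAR, DESeq2 and the build mm9. Neither the counting tool nor its strand setting is given in the sources used here. The row that names no gene held 0.0131 to 0.0192% of counts and was left out, leaving 22619 genes.

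Genes that passed edgeR's filterByExpr (14306) were normalized by TMM and tested with edgeR 4.0.16 (robust quasi-likelihood, R 4.3.3) in 1 fit of all 11 libraries by group, with 7 residual degrees of freedom, for Sufu mutant minus sonidegib. P-values were Benjamini-Hochberg adjusted over all genes tested, and each SE was derived from the fold change and its F statistic. The scripts were tested on simulated data. Named genes were up to 15 rises and 15 falls of the largest fold with an adjusted p under 0.05, a log2 difference of at least 1, a mean of at least 5 CPM, no overlap and a kept call (clone and predicted symbols passed over), plus Sufu, the Hedgehog genes and up to 4 called members of each of 29 lists. The members and lists were chosen with earlier results of these data known. Alternatives were other sets of libraries, scalings (RLE and upper quartile), tests (DESeq2 1.42.0 and limma 3.58.1 voom with quality weights), filters, a transcript length offset, and leaving out each parental, sonidegib and Sufu library in turn. Promoters and transcript lengths came from reference annotation and not from mm9, so no coordinates were taken from the count table. Some genes that met the naming rule are not reported here.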

Additional observations from a re-analysis of the deposited data

How the results depend on the processing

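No paired analysis was possible because the Sufu clones carry clone names and no replicate numbers that match those of the sonidegib libraries. The count of 1117 called genes (623 higher, 494 lower) moved by over 1.5 times under several alternatives. It was 15 (12 higher, 3 lower) with only the 4 Sufu and sonidegib libraries, 235 (157 higher, 78 lower) without the Ofd1 clones, 2580 (1325 higher, 1255 lower) by DESeq2 and 4 (2 higher, 2 lower) by limma voom with quality weights. With the libraries of clone R14 summed it was 792 (479 higher, 313 lower), where only the lower count moved by over 1.5 times. Leaving out 1 library at a time gave 148 to 4456 in all, 92 to 2091 higher and 42 to 2365 lower, and 24 to 30 of the 30 leading genes. The naming rule required those 30 to be called without each sonidegib library in turn, so these leave-outs could not lose any of them. Of those 30, 8 were called with the 4 libraries alone and 2 by voom. Genes called between Ofd1 and Sufu clones numbered 1, against 0 with R14 summed, 88 by DESeq2, 2 by voom and 0 to 15 with 1 library left out. Of 119 genes followed over 17 alternatives, 5 results reversed, all of them genes that were not called. A further 475 results kept their direction but lost the call, and 1520 were the same. For the medians of 29 lists, 38 results moved by more than their SD over pairs of Sufu and sonidegib libraries, and 453 did not. Gpr161 and Kif7 were not among the 119 and also changed sign. Gpr161 was at 2.57 without sonidegib replicate 1 and -1.13 without replicate 2, and Kif7 at 0.31 and -0.53. With 1 library left out Sufu ran from -2.45 to 0.87 (0.25 without R13), Ccnd2 from -0.16 to 0.83 (-0.14 without sonidegib replicate 2) and Igf2 from -0.24 to 1.74. The cause was not tested. Totals of 24308451 counts and above leave little counting error for genes of 5 CPM or more, while each of the 2 groups compared has 2 libraries and the spread is pooled over 11 libraries with 7 residual degrees of freedom.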
